A study of Sparus aurata with 9 samples.

Results

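Of the 9955 sequences tested on liver arrays of gilthead sea bream (Sparus aurata), 82 stood apart at 7 days after a cortisol implant. Their day 14 mean lay within 1 of the Control mean on the log2 scale, a limit that leaves room for smaller differences. Of these, 21 were higher at day 7 and 61 were lower. The 82 are 0.824% of the sequences tested, with 0.211% for the higher and 0.613% for the lower ones. They were chosen on their values: the mean of the 3 day 7 arrays had to differ from the Control mean and from the day 14 mean by at least 1 on the log2 scale in the same direction. The day 14 mean had to lie within 1 of the Control mean, and the 3 day 7 arrays had to lie all above or all below the other 6. Because the values chose the sequences, their differences between groups are given as a description without a test. The array carried 15156 sequences in all. The same rule with day 14 in place of day 7 found 97 sequences (0.974%). The rules exclude each other, so none of these could be a member.

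The study asked how a lasting rise of cortisol acts on the liver transcriptome of this farmed marine fish. The D7 group held adult fish injected into the body cavity with 200 µg of cortisol per g body weight, as hydrocortisone hemisuccinate in a coconut oil implant of 5 µl per g, and sampled after 7 days. The D14 group held adult fish with the same implant sampled after 14 days. The Control group held adult fish that the sample labels list with no treatment, while the protocol describes both controls implanted with coconut oil alone and untreated fish taken on day 0. The sampling day of the Control fish is not given in the sources used here, so that time, fasting and the implant itself cannot be told apart from cortisol in any difference from Control. All fish weighed 108 g on average, were kept at 15 °C with 12 h of light, and went unfed from 24 h before the start until sampling. D14 fish thus went unfed for longer than D7 fish, and this cannot be told apart from time under cortisol between these groups. Each array held pooled liver RNA of 2 fish, with 3 pools per group and each pool on its own array. SDs, SEs and p-values therefore measure how much pools of different fish vary, together with differences between arrays and slides. The design text counts 36 fish, while 9 pools of 2 make 18. With 9 arrays, precision is limited by their number.

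Cortisol is the main glucocorticoid of bony fish. It is released by the interrenal tissue under stress, enters liver cells and binds receptors that act as transcription factors on the genes they reach. In fish liver it is known for promoting glucose production and amino acid breakdown and for acting on immune and growth genes. Liver transcripts are known to respond to glucocorticoids with different time courses, some early and transient and some lasting, and 2 sampling days give only a coarse view of these.

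The names of the sequences on this array are those of clone reads and assembled contigs. None of the 15156 names matched any of the 32006 genes of the RefSeq annotation of the fSpaAur1.1 assembly, so no gene name or function is given to any member. For the same reason the liver label of the RNA was not checked against marker genes here. In RNA from whole liver, a lower value can mean fewer cells of a type or less RNA per cell, and these cannot be told apart.

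Values are the log2 of the background-subtracted spot signal minus the 75th percentile of the same array. A value of 0 is therefore the level that 75% of the spots do not exceed, and a difference of 1 is a doubling. Across the arrays 34.7% to 65.2% of the spots were well above background by the scanner's own test, and no spot was saturated. The lowest share belonged to D14 pool 1, whose dimmest spot lay at −3.48, against −6.64 to −5.00 on the other 8 arrays. Values under about −3.5 could therefore be seen on 8 arrays and not on D14 pool 1. D7 pool 3, D14 pool 3 and Control pools 1 and 3 shared slide 1, D7 pool 1 and D14 pool 1 shared slide 2, and the second pool of each group was on slide 3. Slide 1 was scanned on 1 day, and slides 2 and 3 on another. The ratio of spike to negative control signal was 87.0 to 130.4 on slide 1 and 9.77 to 26.8 on the others. D7 and Control were thus unevenly spread over slides and scan days.

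The 21 higher members had median values of −1.71, −1.65 and −1.47 on the D7 arrays, against −2.45, −2.87 and −3.16 on the D14 arrays and −3.17, −2.70 and −2.82 on the Control arrays. The 61 lower members had medians of −3.41, −3.52 and −4.17 on the D7 arrays, against −2.39, −2.10 and −2.43 on the D14 arrays and −2.27, −2.13 and −2.19 on the Control arrays. Both sets thus consisted mainly of dim sequences, and the D14 medians lay near the Control medians, as the rule asks. The median D7 minus Control difference was 1.33 for the higher members (1.07 to 3.11) and −1.38 for the lower ones (−3.89 to −1.01). The median D7 minus D14 difference was 1.25 (1.0025 to 2.47) and −1.27 (−3.48 to −1.0025) for the same sets. Over all sequences tested these medians were 0.05 and 0.04. For members that failed the background test on all 3 arrays of a group these differences are not exact, and their folds are described further on. Few members moved far: 4 higher and 4 lower members differed from Control by 2 or more, while 12 higher and 41 lower ones differed by under 1.5.

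**Figure D1:**
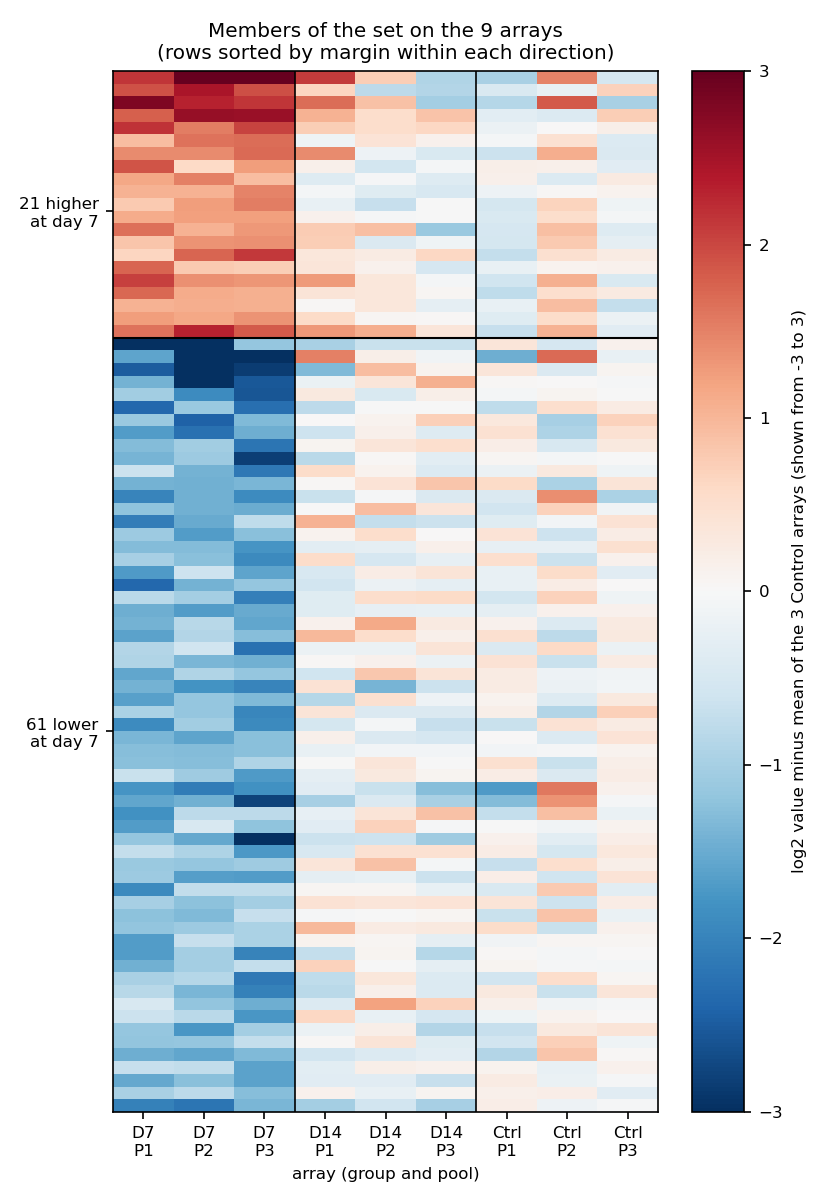
Each line of colour is a member and each column an array, with D7, D14 and Control pools from left to right. Colour gives the log2 value minus the mean of the 3 Control arrays. The 21 higher members are red on the D7 arrays, the 61 lower members are blue there, and the D14 arrays are pale for most of both, which the rule for choosing them requires.

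**Figure D2:**
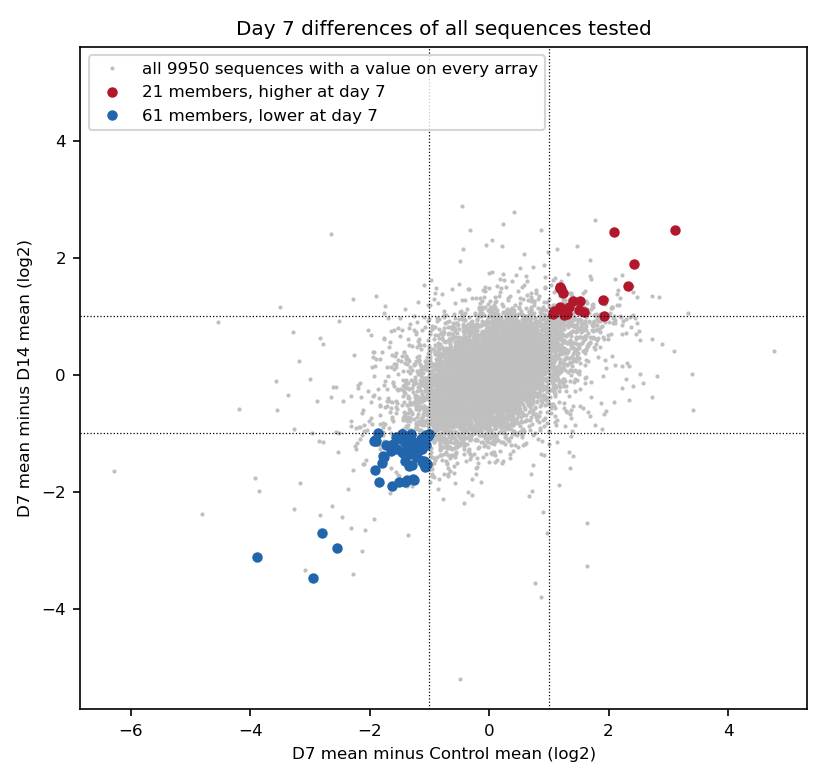
The horizontal axis gives the D7 minus Control difference and the vertical axis the D7 minus D14 difference of each sequence, both in log2 units, with dotted lines at the threshold of 1. Grey points are the 9950 sequences with a value on every array, red points the 21 higher and blue points the 61 lower members, most of which lie close to the thresholds.

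The thresholds cut through a dense part of the distribution. Taking the smaller of both day 7 differences as the margin of a sequence, the lowest margins inside the higher set were 1.00 and 1.03, and the largest outside it among sequences that met every other criterion were both 0.99. For the lower set they were 1.00 and 1.01 inside, and both 0.99 outside. Margins between 1 and 1.1 were found for 6 higher and 19 lower members, and margins between 0.9 and 1 kept out another 12 and 14 sequences. The criterion on day 14 kept out 4 higher and 6 lower sequences, the closest with a D14 to Control difference of 1.02 and 1.03 in size. The largest such difference inside was 0.91 and 0.86. The criterion on overlap kept out 91 sequences on the higher side and 62 on the lower side that met the others. All 3 D7 arrays lay above the other 6 for 211 of the 9955 sequences (2.12%) and below them for 250 (2.51%), 461 in all (4.63%), the 82 members included. The members are among these by the rule, so nothing is read from their number.

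The 2 higher and 2 lower members with the largest margins among those measured by several probes are described by name. Contig659, measured by 3 probes, was the higher one with the largest margin. Its values were −0.59, −0.03 and −0.56 on the D7 arrays, against −1.85, −3.27 and −3.38 on the D14 arrays and −2.95, −2.72 and −1.81 on the Control arrays. Every D7 array was above every other array, the closest being Control pool 3 at a distance of 1.22, the widest gap among the higher members. The mean over its probes was higher in D7 than in Control by 2.10 on the log2 scale (SE 0.46) and higher than in D14 by 2.44 (SE 0.46). Both differences rest on probes that were mostly not well above background in D14 and Control, so they are not given as folds. With normexp background correction they were 0.95 and 0.92, and the sequence no longer met the rule.

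The 3 probes of Contig659 disagreed. Probe CUST_4785_PI419285025, the brightest, had values of 1.43, 0.74 and 0.99 on the D7 arrays, against 1.103, 1.05 and 0.67 on the D14 arrays and 1.30, 1.33 and 1.15 on the Control arrays. This probe showed no separation of the groups, with a D7 minus Control difference of −0.21. Probe CUST_4784_PI419285025 had −0.42, 0.95 and −0.58 on the D7 arrays, against −3.40, −6.49 and −6.31 on the D14 arrays and −5.43, −4.94 and −2.27 on the Control arrays. It was well above background on all 3 D7 arrays, on no D14 array and on 1 Control array, and its D7 minus Control difference was 4.196. Probe CUST_4783_PI419285025 was well above background on all 3 D7 arrays, on 1 D14 array and on no Control array, so no exact difference from Control is given for it. When only probes well above background on at least 6 arrays were kept, the flat probe alone remained and the D7 minus Control difference of the sequence was −0.21, opposite in sign to the value from all 3 probes. Where on the sequence the probes lie is not given in the sources used here.

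The other higher member described by name, cDN11P0001N22.F.ab1, a clone read, behaved alike on its 3 probes. Its values were −1.06, −0.25 and −0.26 on the D7 arrays, against −1.81, −2.34 and −1.99 on the D14 arrays and −3.17, −3.27 and −2.12 on the Control arrays. The D7 arrays were all higher than the rest, by at least 0.75, and the D14 arrays lay between D7 and Control with some overlap with Control. The D7 mean was higher than Control by 2.33 on the log2 scale (SE 0.37) and higher than D14 by 1.52 (SE 0.37). Its probes were well above background on 2, 1 and 1 of the 3 Control arrays and on 2 of the 3 D14 arrays each. These differences are therefore not given as folds. Its probes gave D7 minus Control differences of 2.26, 2.29 and 2.43. The D14 mean was still 0.81 above Control (SE 0.37). With normexp background correction the D7 minus Control difference was 1.26 and the D7 minus D14 difference 0.63, and the sequence no longer met the rule.

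The clone read cDN04P0006F15.F.ab1 was the lower member with the largest margin, and its 3 D7 pools differed widely. Its values were −2.46, −3.26 and 1.23 on the D7 arrays, against 1.42, 1.73 and 1.72 on the D14 arrays and 2.77, 1.88 and 2.53 on the Control arrays. D7 pools 1 and 2 were far below every other array, whereas D7 pool 3 lay only 0.19 below the nearest D14 array. The D7 mean was lower than Control by 3.89 on the log2 scale (SE 0.96), with an SD of 2.39 over the 3 D7 pools, the largest among the members. On slide 1, which held D7 pool 3, the D7 minus Control difference was −1.42 and the D7 minus D14 difference −0.49. With normexp background correction the differences over all pools were −2.43 and −1.57.

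Its 3 probes divided into a pair with this spread between pools and 1 without it. Probe CUST_19778_PI419285025 read −4.21, −5.42 and 1.14 on the D7 arrays, against 1.13, 1.36 and 1.44 on the D14 arrays and 2.54, 1.48 and 2.22 on the Control arrays. Probe CUST_19777_PI419285025 had −4.31, −5.20 and 0.63 on the D7 arrays, so both were far below every other array in D7 pools 1 and 2 and within the D14 range in D7 pool 3. Each was well above background on 1 of the 3 D7 arrays and on all D14 and Control arrays. Probe CUST_19779_PI419285025 was well above background on all 9 arrays and gave 1.14, 0.85 and 1.93 on the D7 arrays, against 2.57, 2.76 and 2.55 on the D14 arrays and 3.41, 2.83 and 3.37 on the Control arrays. On this probe all 3 D7 pools were lower than the other 6 arrays, and the D7 minus Control difference was −1.90.

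Contig2085, measured by 4 probes, was the other lower member described by name. Its values were −2.51, −4.91 and −4.24 on the D7 arrays, against 0.57, −0.76 and −1.04 on the D14 arrays and −2.41, 0.75 and −1.16 on the Control arrays. All D7 arrays were lowest, but Control pool 1 lay only 0.10 above D7 pool 1. The D7 mean was lower than Control by 2.95 (SE 0.86) and lower than D14 by 3.48 (SE 0.86). These sizes rest on D7 values mostly not above background, since 3 of its probes were well above background on 1 D7 array each and the other on none. With normexp background correction they were −1.13 and −1.49. The low value of Control pool 1 came from 1 of the 4 probes, CUST_1944_PI419285025, which read −5.41 there, against 0.50 and −0.92 on Control pools 2 and 3. The other 3 probes read between −1.61 and −1.21 on Control pool 1. On a pair of these, CUST_38_PI419368177 and CUST_1942_PI419285025, the D7 arrays did not lie apart. D7 pool 1 read −1.34 and −1.16 on them, against −1.59 and −1.55 on D14 pool 2, −1.88 and −1.78 on D14 pool 3 and −1.61 and −1.43 on Control pool 1.

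**Figure D3:**
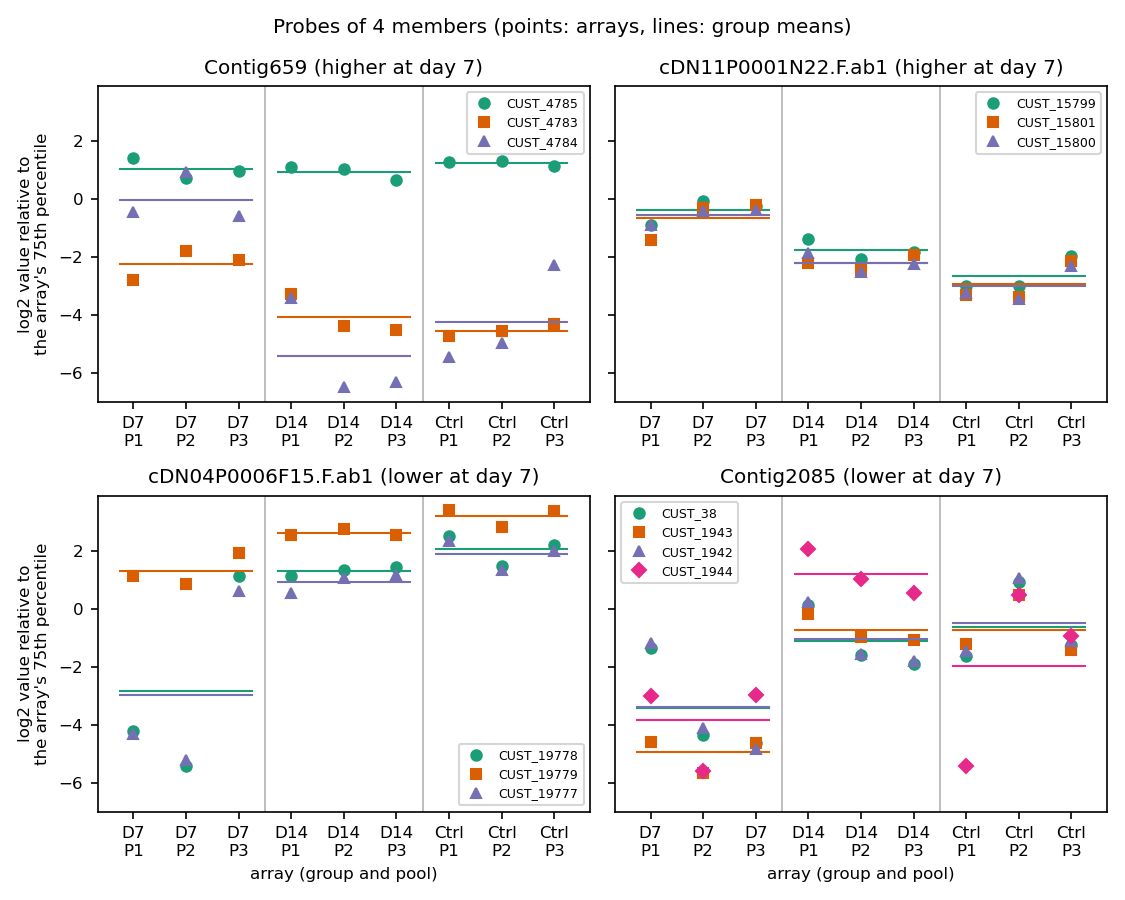
Each panel shows a member described by name, with the arrays of D7, D14 and Control from left to right on the horizontal axis and the log2 value relative to the array's 75th percentile on the vertical axis. Points are single arrays, lines are group means and colours are probes. In Contig659 the probe near 1 is level across the groups while the other probes are higher in D7. In cDN04P0006F15.F.ab1 a pair of probes is near −4 to −5 in D7 pools 1 and 2 and near 1 in D7 pool 3.

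Patterns over the 9 arrays like those of these 4 sequences were not particular to the members. Pearson's r over the 9 arrays, which share the 3 groups, was above 0.9 with 4 other sequences for Contig659, 21 for cDN11P0001N22.F.ab1, 5 for cDN04P0006F15.F.ab1 and 6 for Contig2085, out of 9949 compared. In each case 1 of those was a member. The highest r were 0.94, 0.95, 0.94 and 0.96 in the same order.

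A single probe past the background test is enough for a sequence to count as well above background on that array. Among the 9 members with a mean level above 0, which were so on all 9 arrays, 3 were higher and 6 lower at day 7. The lower ones include cDN04P0006F15.F.ab1, of which 1 of 3 probes was well above background on all 9 arrays. They are given by their rank in margin within their set. The higher member of rank 5, with 2 probes, had 2.998, 2.35 and 2.86 on the D7 arrays, against 1.56, 1.36 and 1.44 on the D14 arrays and 0.65, 0.83 and 0.99 on the Control arrays. Its 3 groups did not overlap, with D14 between D7 and Control, and its D7 minus Control difference was 1.91 (SE 0.24). The higher member of rank 9 had 3.70, 4.06 and 3.48 on the D7 arrays, against 2.16, 2.52 and 2.15 on the D14 arrays and 2.69, 2.14 and 2.80 on the Control arrays. Here D14 and Control overlapped and D7 was the brighter by 1.205 over Control (SE 0.27). The higher member of rank 12 was similar, with 3.13, 3.23 and 3.24 on the D7 arrays, against 2.14, 1.97 and 1.99 on the D14 arrays and 1.55, 2.53 and 1.95 on the Control arrays. Both rest on 1 probe.

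Of the bright lower members, that of rank 33, with 3 probes, had the tightest pools. It gave −0.18, −0.18 and −0.15 on the D7 arrays, against 0.89, 1.02 and 1.02 on the D14 arrays and 1.03, 1.06 and 1.22 on the Control arrays. Its SD over the D7 pools was 0.02, the D7 arrays were at least 1.04 below the others, and the D7 minus Control difference was −1.28 (SE 0.19). The lower member of rank 5 had 1.46, 0.63 and −0.06 on the D7 arrays, against 2.80, 2.06 and 2.70 on the D14 arrays and 2.44, 2.60 and 2.49 on the Control arrays. D7 was lower by 1.84 than Control (SE 0.38), while D14 and Control differed by 0.01. This member rests on 1 probe. The lower member of rank 23 had 0.44, 1.03 and 0.30 on the D7 arrays, against 1.99, 2.998 and 2.13 on the D14 arrays and 1.99, 1.47 and 2.14 on the Control arrays. The lower members of ranks 44 and 57 differed from Control by −1.14 and −1.45. Rank 44, with 1 probe, had D7 values of −1.50, −0.33 and −0.32. Rank 57, with 3 probes, had −0.45, −0.53 and −0.31. With normexp background correction the lower members of ranks 33, 44 and 57 no longer met the rule, while those of ranks 5 and 23 did.

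Somewhat dimmer, the lower members of ranks 3 and 4 had the widest gaps of their set. Rank 3 had −2.62, −3.18 and −2.98 on the D7 arrays, against −1.46, 0.81 and −0.03 on the D14 arrays and 0.23, −0.56 and −0.04 on the Control arrays. Rank 4 had −0.99, −3.28 and −2.11 on the D7 arrays, against 0.23, 0.78 and 1.49 on the D14 arrays and 0.45, 0.43 and 0.38 on the Control arrays. Their D7 arrays stood 1.17 and 1.22 below the nearest other array. The D7 minus Control differences were −2.80 (SE 0.51) and −2.55 (SE 0.54). By contrast the higher member of rank 1, with 1 probe, had −2.25, −1.31 and −0.32 on the D7 arrays, against −2.32, −3.68 and −5.30 on the D14 arrays and −5.38, −2.92 and −4.92 on the Control arrays. It was not well above background in any Control pool, so its difference from Control is not exact. As measured, that difference was 3.11 (SE 0.87), the largest of its set, and yet its dimmest D7 array was only 0.06 above D14 pool 1.

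Across the members this gap between the D7 arrays and the nearest other array was small beside the differences of means. Its median was 0.38 in the higher set (0.01 to 1.22) and 0.28 in the lower set (0.02 to 1.22). It was under 0.1 for 5 higher and 10 lower members and at least 0.5 for 8 and 12. The array nearest to D7 was D14 pool 1 for 8 higher and 18 lower members, Control pool 2 for 8 and 15, and Control pool 1 for 1 and 12. The median SD within a group was 0.35 in D7, 0.35 in D14 and 0.64 in Control for the higher members, and 0.48, 0.40 and 0.48 for the lower ones. Over all sequences tested these SDs were 0.39, 0.34 and 0.35.

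The members were dimmer than the sequences tested at large. The median of the mean level over the 9 arrays was −2.48 for the higher and −2.79 for the lower members, against −1.09 over all sequences tested. Only 20 of the 82 (24.4%) were well above background on all 9 arrays, against 54.1% of all sequences tested. Of the lower members, 29 of 61 (47.5%) failed the scanner's background test on all 3 D7 arrays, against 3.87% of all sequences tested. All 29 were well above background on some D14 and some Control array. The filter asks for at least 3 arrays, so these members could be tested only through D14 and Control. Together with the rule for lower values at day 7 this builds in part of their share, and nothing is read from it. For these 29 the folds are inexact, and no firm lower limit could be set. Raising the D7 values to the lowest signal among probes well above background on the same array changed none, since they lay above it. As measured, these members were 2.01-fold to 3.76-fold lower in D7 than in Control, and 2.01-fold to 3.73-fold lower in D7 than in D14. In the higher set 4 members failed the background test on all 3 Control arrays, and these could be tested only through D7 and D14. With the Control values raised in that way, D7 was 2.36-fold to 8.54-fold higher than Control in these, again without a firm lower limit.

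The floor of D14 pool 1 bears on both sets, and on the lower one most directly. In 26 of the 61 lower members all 3 D7 values lay under −3.48, the lowest value that D14 pool 1 holds, so their order against that array was fixed. On D14 pool 1 itself 15 lower and 4 higher members read within 0.25 of −3.48, so their D14 means rest in part on such readings. In 11 higher and 20 lower members, another D14 pool or a Control pool read below −3.48. When every array was raised to that value before the rule was applied, a setting chosen after the data were seen, 18 sequences were higher and 24 lower, of which 17 and 24 were members. The share of lower ones was then 57.1%, against 74.4% as reported. Without D14 pool 1, 66 sequences were higher and 79 lower, of which 21 and 50 were members. With an array left out, the criterion on overlap has fewer arrays to satisfy, while the group means can move either way. Without D14 pool 2 there were 26 higher and 60 lower sequences, and without D14 pool 3 there were 18 and 68. The share of lower ones was 54.5% without D14 pool 1, 69.8% without pool 2 and 79.1% without pool 3. The cause of these differences was not tested.

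**Figure D4:**
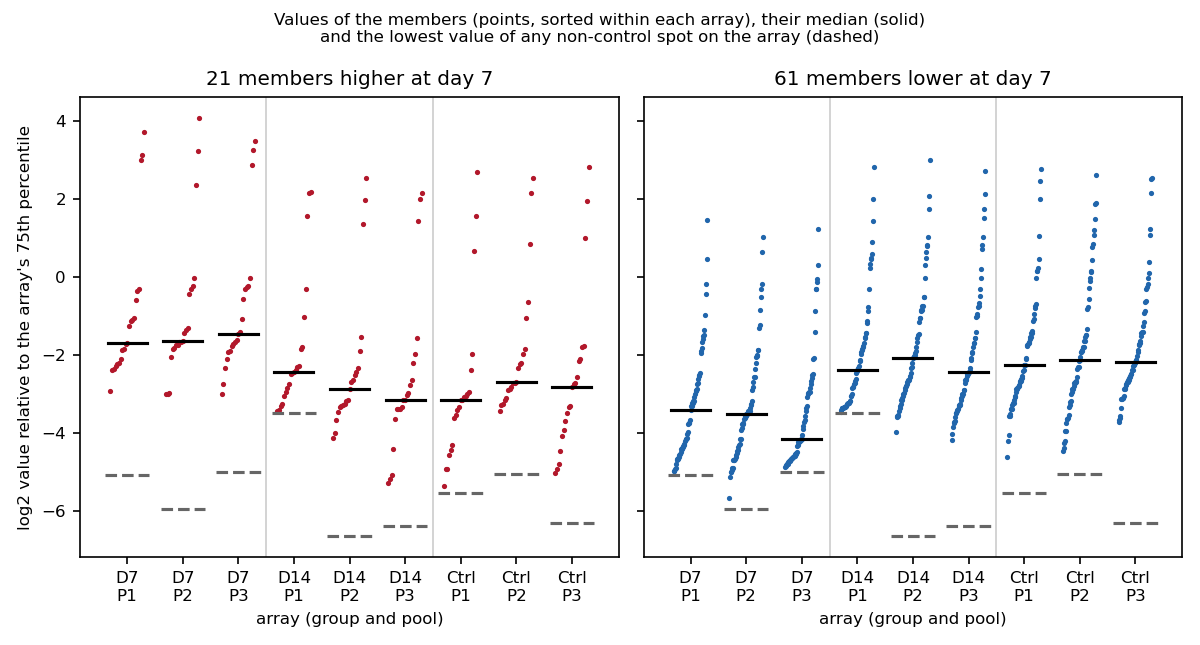
Points are the log2 values of the 21 higher members (left) and the 61 lower members (right) on each array, sorted within the array, with D7, D14 and Control from left to right. Solid lines mark the members' median on the array and dashed lines the lowest value of any non-control spot there. The dashed line of D14 pool 1 is at −3.48, above many D7 values of the lower members.

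Most members rest on 1 probe. After the filter on dim probes 53 of the 82 (64.6%) had 1 probe left, against 55.4% of all sequences tested. The other 29 had 81 probes, of which 80 lay in the member's direction in both day 7 differences and 58 passed 1 in both. The flat probe of Contig659 was the exception. The rule read the means of these probes, so their shared direction is largely built in and is no separate support. In 7 sequences, 2 higher and 5 lower, every probe passed 1 in both differences and had its D7 arrays apart. The criterion on day 14 was not part of this count. The D7 minus Control differences of probes of the same member were spread over a median range of 0.20 in the higher and 0.64 in the lower set, and over up to 4.41 and 3.41.

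Probes that the filter left out give values that the rule did not read. For 8 higher members there were 13 such probes, and the D7 mean was above both other means on 12 of them, against 46.4% of the 1921 left-out probes of all tested sequences. Their median D7 minus Control difference was 0.75 (0.26 to 2.05), against 0.28 over all left-out probes. For 7 lower members there were 10 such probes, and the D7 mean was below both other means on 8 of them, against 22.1%. Their median difference was −0.76 (−1.77 to 0.34). These probes are at or near background and were read from the same RNA, so they are no replicates of the pools. The members were chosen on these same arrays, and some gave more than 1 such probe. The shared direction is therefore no separate support.

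The kinds of sequence name were spread much as among the sequences tested. Clone reads made up 53.7% of the members and 49.7% of all sequences tested. Sequences named Contig made up 23.2% and 24.5%, and Seabream clusters 23.2% and 22.4%.

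How close the members lay to the Control level at day 14 was only loosely measured. The median D14 minus Control difference was 0.18 in the higher set (−0.34 to 0.91) and −0.04 in the lower set (−0.86 to 0.55). It was above 0 in 16 of 21 higher and in 28 of 61 lower members. The D14 mean lay between the D7 and Control means in 16 higher and 33 lower members. The 95% interval of the difference, from the fit over all sequences, reached a median of 0.83 to either side in the higher and 0.86 in the lower set. It is given to show the precision and is no test, since the rule used the same difference. It lay wholly within 1 of 0 in 31 of the 82, with 8 higher and 23 lower. For the others a difference of 1 at day 14 was within the interval.

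In limma's fit over all 9955 sequences with Benjamini-Hochberg adjustment at 0.05, 44 sequences differed between D7 and Control (0.442%), 22 higher (0.221%) and 22 lower (0.221%). This count depended on the blocks and on single pools: it was 10 with pool number as a block, 11 with slide as a block, and 0 without Control pool 1 or Control pool 3, where 972 and 952 sequences had an unadjusted p under 0.05. Of the members 6 were among them, 2 higher and 4 lower, and nothing is read from this, since the rule used the same contrast. Between D7 and D14 no sequence passed (0%), with 1144 (11.5%) at an unadjusted p under 0.05, among them 75 members. Between D14 and Control 42 sequences passed (0.422%), with no member among them. At an unadjusted p under 0.05 there were 1754 (17.6%), with 2 members. The rule used this contrast and the one between D7 and D14 too, so nothing is read from these counts of members.

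Median differences within slides had the sign of the set on each slide, which the rule for choosing the members fixes in advance. The D7 minus D14 difference of the higher members had a median of 1.49 on slide 1, 1.00 on slide 2 and 1.26 on slide 3, and the D7 minus Control difference 1.82 on slide 1 and 0.68 on slide 3. For the lower members these medians were −1.42, −1.21 and −1.38 against D14, and −1.69 and −1.19 against Control. Slide 2 held no Control pool. A D7 minus Control difference of 1 or more on slide 3 was found for 9 of 21 higher and 39 of 61 lower members. Each such value compares 1 D7 pool with 1 other pool, or with 2 Control pools on slide 1, and the rule used the same arrays.

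How many sequences met the rule, and which, changed with the background correction. When scaling was done over the bright probes, on the median or by quantiles, 43 members met the rule each time, 11 higher and 32 lower. With normexp background correction, which compresses dim values, 5 sequences were higher and 6 lower, and 3 and 6 of these were members. These 9 had a median level of 1.61, 8 of them were well above background on all 9 arrays and 6 had several probes. In the authors' own values, scaled to the same percentile of each array, 37 sequences were higher and 23 lower, of which 18 and 17 were members. The share of lower sequences was 86.2% with scaling on the median (13 higher, 81 lower), 54.5% with normexp and 38.3% in the authors' table, against 74.4% as reported. The excess of lower over higher members therefore turned in the authors' table.

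Single pools also set how many sequences met the rule. Without D7 pool 1 there were 83 higher and 116 lower sequences, without D7 pool 2 41 and 117, and without D7 pool 3 76 and 107. Without Control pool 2 there were 36 and 111. Without any of the other pools in turn, D14 pool 1 aside, the counts were within 1.5 times of 21 and 61. Of the members, 27 met the rule whichever array was left out, 5 higher and 22 lower. Their D7 minus Control differences were 1.19 to 2.80 in size, and 12 of the 27 had several probes.

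**Figure D5:**
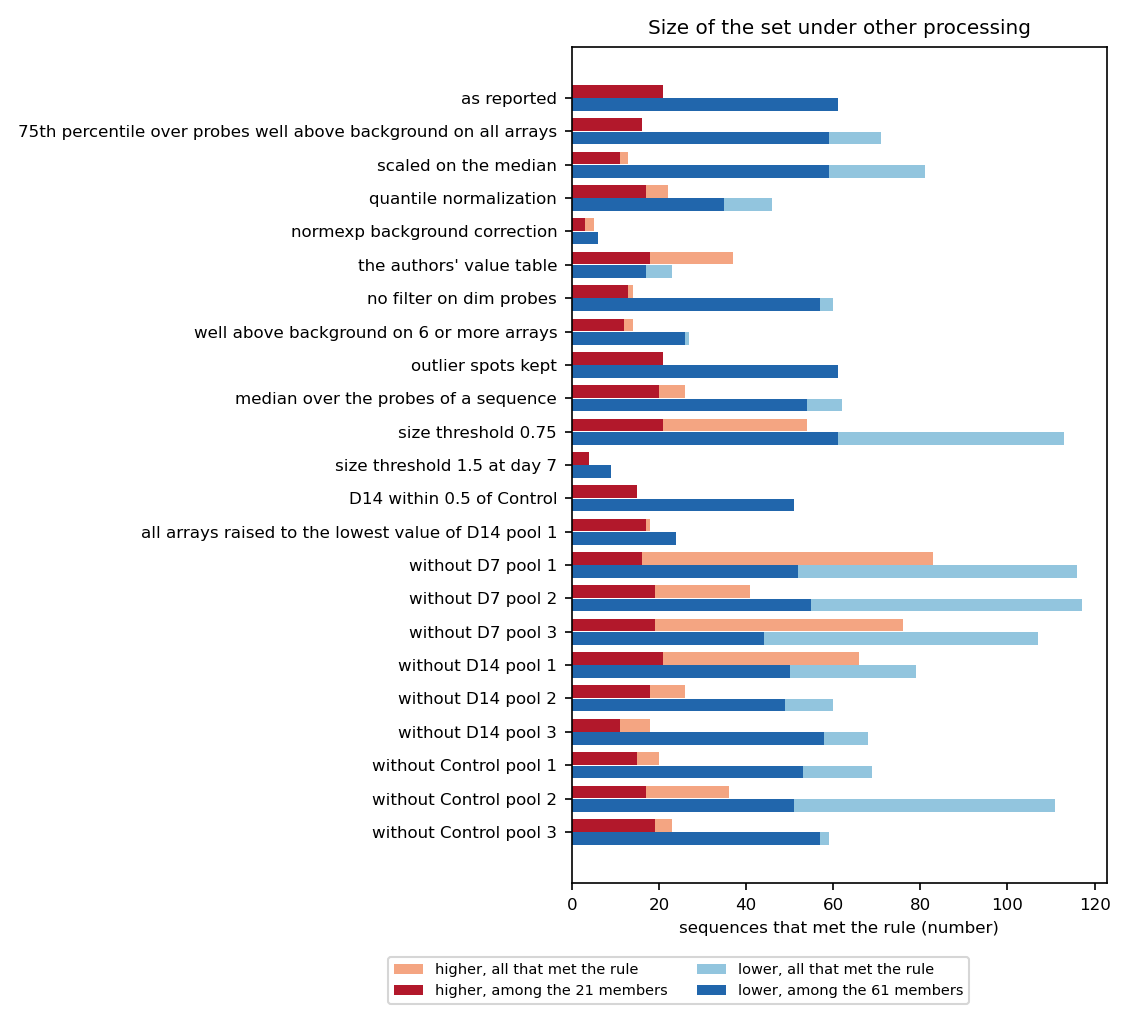
Bars give the number of sequences that met the rule on the horizontal axis under each processing named on the vertical axis, red for higher and blue for lower at day 7. The dark part of a bar is the number that are among the 21 higher or 61 lower members, and the light part the sequences that are not. Normexp background correction leaves 3 higher and 6 lower members, and leaving out a D7 pool gives more sequences, with fewer arrays in the criterion on overlap.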

How the data were processed

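The 9 arrays, in 3 groups of 3 pools, were analysed, with group and pool number from the sample titles. The labels state single-colour Cy3 labelling of RNA with RIN values above 8, extracted from each fish. Per the file headers, Agilent Feature Extraction 10.7.3.1 made the deposited spot intensity, which is background-subtracted within the array and not scaled between arrays. The authors' deposited value table is on the log2 scale for 8 arrays and, for D7 pool 3, on a logarithm to base 20, another deposited scale, found by matching its columns to the scanner output. After that column was turned to log2, the medians were 6.37, 6.87 and 5.38 (D7), 7.15, 7.62 and 6.32 (D14) and 6.44, 6.70 and 6.88 (Control). As deposited, the table was neither centred nor scaled between arrays. It served as an alternative after each array was scaled in the same way as the main value described below.

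The main value was log2 of the processed signal minus the array's 75th percentile over 43803 non-control spots, without outlier spots. Spots were averaged per probe (28793) and probes per sequence, over the 18278 probes with at least 50% of their spots well above background on at least 3 arrays. The members were found by the rule given in the report. limma 3.58.1 in R 4.3.3 (lmFit and eBayes, 6 residual degrees of freedom) was fitted to 9955 sequences for standard errors, 95% intervals and counts of calls, and was tested on simulated data. The 5 missing values were left missing. The sequences described by name are the 2 higher and 2 lower members of the largest margin among those with at least 2 probes kept. Same-numbered pools of D7 and Control correlated at 0.102, 0.114 and 0.285 in their deviations from the group means. Those of D7 and D14 did so at 0.094, 0.293 and 0.302, and those of D14 and Control at −0.291, −0.021 and 0.416. Same-numbered pools 2 and 3 also shared a slide in every group, and pool 1 of D7 and of D14 did so too. Pool number and slide cannot be told apart in these pairs. Only Control pool 1 was on another slide than the same-numbered pools. The labels name no pairing. The main fit used no block, and pool number, slide and scan day were each tried as a block. Gene and marker lists were not read, since no sequence could be named. The normexp alternative used an offset of 50. The members, the rule and these choices were made with earlier results of these data known.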

Additional observations from a re-analysis of the deposited data

How the results depend on the processing

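The 21 higher members became 13 with scaling on the median, 5 with normexp, 37 in the authors' table, 54 at a size threshold of 0.75 and 4 at 1.5. The 61 lower members became 6 with normexp, 23 in the authors' table, 27 with probes well above background on at least 6 arrays, 113 at 0.75, 9 at 1.5, and 24 with arrays raised to the lowest value of D14 pool 1. Leaving out an array in turn gave 18 to 83 higher and 59 to 117 lower sequences. The D7 minus Control difference of Contig659 was −0.21 with the filter at 6 arrays, which leaves 1 of its 3 probes. Of the other values of named and median differences, 174 kept their sign within 1 SD between pools and 23 moved by more. Some of the 174 were fixed in advance. A difference does not change when a pool of the third group is left out or pool number is the block. The D7 minus D14 difference does not change with slide or scan day as the block either. All probes of the named members passed the filter, so the setting without a filter leaves their values as they were. The median over all sequences of D7 minus Control was 0.12 with normexp and 0.20 without a filter, and that of D7 minus D14 was 0.16 in the authors' table and 0.11 without a filter.

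Calls between D7 and Control (44) were 17 with quantile normalization, 8 with normexp, 5 in the authors' table, 0 without a filter (limma, 1151 at an unadjusted p under 0.05), 11 with slide and 21 with scan day as a block, and 0 to 128 with an array left out (13, 8 and 22 without D7 pools 1, 2 and 3, 6 and 1 without D14 pools 2 and 3, 128 without Control pool 2 and 0 without Control pool 1 or 3, where 972 and 952 passed unadjusted). Calls between D14 and D7 were 0 in each of these settings, with 0 to 1 when an array was left out (1 without D7 pool 3 and 1 without D14 pool 1). Calls between D14 and Control (42) were 27 with quantile normalization, 6 with normexp, 2 in the authors' table, 0 without a filter (1500 unadjusted), 111 with a trended and robust prior, and 0 to 76 with an array left out (71, 22 and 76 without D7 pools 1, 2 and 3, 0 without D14 pool 2 or 3, 74 without Control pool 2 and 0 without Control pool 1 or 3). Where these were 0, limma gave 1220 to 1400 at an unadjusted p under 0.05. The cause of these shifts was not tested. With pool number as a replicate block the calls were 10, 0 and 38 for D7 against Control, D14 against D7 and D14 against Control. Signal over background limits most members, since 20 of 82 were well above background on every array.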

Other observations

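With D14 in place of D7, 97 sequences (0.974%) met the same rule, 58 higher and 39 lower, against 21 higher and 61 lower for day 7. A further 213 (2.14%) had both cortisol groups apart from Control, 97 with D7 and D14 higher and 116 lower. The comparisons share arrays, and D14 pool 1, with the highest floor, is one of the arrays that set each count. Whether the split by direction differs between these sets was not tested.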
